A study of Mus musculus with 6 samples.

Results

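The ErbB receptors and the growth factors that bind them were examined in 6 mouse osteosarcomas with and without Cd44. The 10 genes were chosen by name, from the 4 receptors (Egfr, Erbb2, Erbb3 and Erbb4) and 6 of their ligands (Nrg1, Areg, Ereg, Hbegf, Tgfa and Btc), out of 39179 genes in the deposited table. The rule uses no expression value, though earlier results of these data were known when the genes were chosen. Each of the 10 was listed in the table, and 5 of them (Egfr, Erbb2, Erbb3, Hbegf and Tgfa) passed the low-count filter of the test between genotypes. Erbb4, Nrg1, Areg, Ereg and Btc did not pass it.

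The tumors came from mice of a mixed C57BL/6 x 129/Sv x FVB background, and every mouse carried the Nf2Δ2/+ mutation of the tumor suppressor gene Nf2, so that no tumor with an intact Nf2 gene was compared. Of these mice, 3 were CD44+/+ (No244, No316 and No368, written Cd44+/+ here) and 3 were CD44-/- (No203, No279 and No364, written Cd44-/- here). CD44 is a cell surface glycoprotein that binds hyaluronan and can act as a co-receptor for growth factor receptors. The study sequenced tumor RNA to look for processes regulated by CD44, beyond the drug transporter it studied in cultured cells. The labels' extraction note speaks of cell lines, whereas the labels' tissue field and the study's methods give primary tumor tissue.

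Several libraries stood apart, in ways whose part in the ErbB levels was not tested. Total counts lay between 18076388 and 26954142 per tumor, and mitochondrially encoded genes took 55.2% of the counts in No244 against 5.94% to 12.5% in the other tumors. The 8 skeletal muscle markers summed to 15480 CPM (counts scaled by library size and TMM factors) in No244, the tumor with the least Egfr of the 6 and the least Hbegf and Tgfa of the Cd44+/+ tumors, against 11.8 to 621 CPM elsewhere. Its part in those levels was not tested. No316 and No368 were close to sampling noise. Of 16671 genes, 87.2% agreed between them within a 95% binomial interval, against 15.7% to 24.1% in the other 14 pairs of tumors, and the pair was therefore averaged before any mean or SD (n = 2 for Cd44+/+ and n = 3 for Cd44-/-). All 12 osteoblast markers, such as Runx2 and Col1a1, were above 3 counts in every tumor. Their summed level, most of it from Col1a1 and Col1a2 in 5 of the tumors, was 3700 CPM in No364 against 22559 to 85230 CPM in the others. The 18 hepatocyte markers, such as Alb and Apoa1, summed to 174687 CPM in No364 and to 99.97 to 239 CPM in the other 5 tumors. No279 was also low in markers of mature osteoblasts, with Sp7 at 3.96 CPM, Ibsp at 3.27 CPM, Bglap at 4.79 CPM, Alpl at 7.16 CPM and Dmp1 at 0.363 CPM. In No364 these were at 0.314, 2.25, 6.80, 19.6 and 0.523 CPM, and each was at 146.6 CPM or more in the other 4 tumors. The library labelled No364 thus had far more liver RNA than the rest, and No279 and No364, the tumors with Nrg1, Ereg and Areg and the most Egfr, shared low levels of these bone markers. The part of this in the ErbB levels was not tested. Whether No316 and No368 are separate tumors and which tissue gave the liver RNA of No364 cannot be told from the labels. Cd44 itself was measured at 137 CPM in No244, 243.6 CPM in No316 and 240.3 CPM in No368. It was at 19.2 CPM in No203, 15.7 CPM in No279 and 61.8 CPM in No364, which matches the order of the labels without overlap. The Cd44-/- tumors were not free of Cd44 reads.

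The ErbB receptors are receptor tyrosine kinases that pair with one another when a ligand binds. EGFR and ErbB4 bind ligands and have an active kinase, ErbB2 has no known ligand of its own and serves as the preferred partner, and ErbB3 binds neuregulins but has little kinase activity and signals through phosphoinositide 3-kinase. The ligands are made as membrane-anchored precursors that metalloproteinases release. TGF-alpha and amphiregulin bind EGFR, heparin-binding EGF-like growth factor, betacellulin and epiregulin bind both EGFR and ErbB4, and neuregulin 1 binds ErbB3 and ErbB4. EGFR and ErbB3 are abundant in hepatocytes, which is background for the tumor with liver RNA.

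Promoter windows were examined because the study searched other promoters for 2 elements tied to the intracellular domain of CD44. The windows run from 250 bases before to 50 bases after the transcription start and come from RefSeq on GRCm38.p6. The study searched a longer stretch before the start, so letters absent here may still lie further upstream. They were matched for 6 of the 10 genes (Egfr, Erbb2, Erbb4, Areg, Tgfa and Btc), and not for Erbb3, Nrg1, Ereg and Hbegf. The letters of the CD44 response element (CIRE), CCTGCG or CGCAGG on the opposite strand, were present in 2 of the 6 windows, those of Erbb2 and Tgfa. The Erbb2 window (chr11:98412234-98412533, plus strand) held 1 match, which began 141 bases before the start. The Tgfa window (chr6:86194972-86195271, plus strand) held 3 matches. Its matches began 138 and 24 bases before the start and, for the last, at base 11 of the transcript. Both windows are shown, since they are the ones that hold the letters, with the CIRE letters in capitals.
Erbb2: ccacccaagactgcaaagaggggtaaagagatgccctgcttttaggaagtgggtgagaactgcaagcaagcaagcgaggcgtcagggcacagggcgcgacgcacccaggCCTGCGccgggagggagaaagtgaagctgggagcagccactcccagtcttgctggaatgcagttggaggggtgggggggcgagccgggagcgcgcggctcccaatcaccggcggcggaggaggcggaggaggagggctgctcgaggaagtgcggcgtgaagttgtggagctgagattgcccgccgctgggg
Tgfa: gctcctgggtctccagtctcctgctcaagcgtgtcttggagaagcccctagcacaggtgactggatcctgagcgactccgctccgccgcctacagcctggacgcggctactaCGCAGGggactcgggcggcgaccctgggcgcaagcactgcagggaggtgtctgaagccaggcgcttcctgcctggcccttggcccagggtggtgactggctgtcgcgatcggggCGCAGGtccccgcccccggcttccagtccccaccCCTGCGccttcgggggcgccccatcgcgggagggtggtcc
The same letters were found in 17.3% of 32851 promoter windows of that length, which is the background for these 2 of 6. The letters of the TPA response element, TGAGTCA or TGACTCA, were in 0 of the 6 windows and in 5.20% of all windows. Erbb2 and Tgfa, the genes with CIRE letters, are described with the others, and neither was called between the genotypes by edgeR.

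The plot of levels shows that the 10 genes fell into those expressed in every tumor and those that were near 0 in the tumors with Cd44. Egfr, Erbb2, Erbb3, Hbegf and Tgfa were above 3 counts in all 6 tumors. Erbb4, Nrg1, Areg, Ereg and Btc were above 3 counts in at least 1 Cd44-/- tumor and in none of the Cd44+/+ tumors. This pattern was present in 9.38% of the 22409 genes that were above 3 counts in any tumor, and the opposite pattern, with 3.84% of genes, was shown by 0 of the 10. The 3-count floor lay between 0.0990 and 0.252 CPM and covers counting error only. No364 was the highest tumor for 6 of the 10 genes, beside 26.5% of the 22409 genes, and No279 for 2 (Areg and Ereg, beside 21%). No203 was highest for Erbb2 (beside 13.5%) and No368 for Hbegf (beside 7.89%), while No244 (22.7%) and No316 (8.36%) were highest for none of the 10. In bulk tissue, fewer cells of a type and less RNA per cell cannot be told apart.

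**Figure D1:**
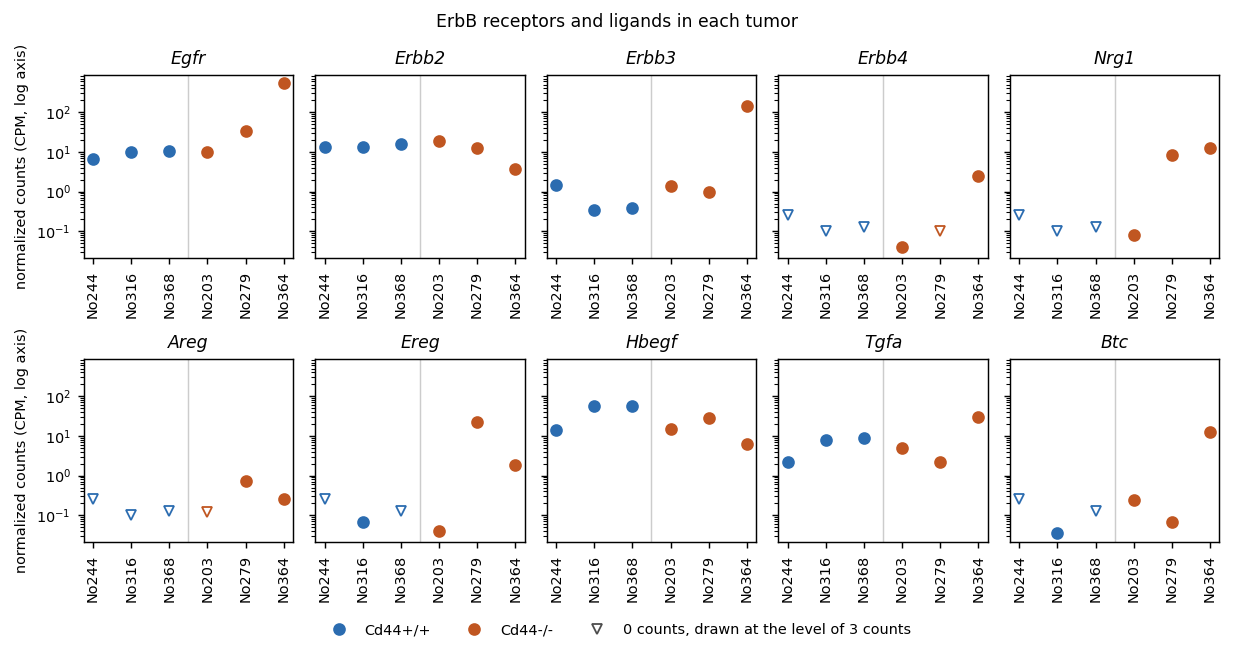
Normalized counts (CPM, log axis) of the 4 receptors and 6 ligands in each tumor, with Cd44+/+ tumors in blue and Cd44-/- tumors in orange. Filled points are measured levels, and open triangles mark 0 counts, drawn at the level of 3 counts in that library. Egfr and Erbb3 were highest in No364, at 550.3 and 142 CPM, while Nrg1 was at 0 counts in all 3 Cd44+/+ tumors and at 8.55 and 12.7 CPM in No279 and No364.

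Among the receptors, Egfr (ENSMUSG00000020122, chr11:16752203-16918158, plus strand) was present at 6.47 CPM in No244, 10.01 CPM in No316 and 10.4 CPM in No368. Among the Cd44-/- tumors it was at 9.75 CPM in No203, 33.1 CPM in No279 and 550.3 CPM in No364. No203 lay within the range of the Cd44+/+ tumors, No279 lay above it, and No364 was 16.6-fold above No279. The group means were 8.33 ± 2.63 CPM (SD, n = 2) and 198 ± 306 CPM (SD, n = 3). The quasi-likelihood test of edgeR gave a log2 fold change of 4.46 (SE 1.49) with an unadjusted p of 0.0214 and an adjusted p of 0.452, so Egfr was not called. Without No364 the edgeR log2 fold change was 1.27 (SE 0.60), with an unadjusted p of 0.0831.

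Erbb3 (ENSMUSG00000018166, chr10:128567523-128589652, minus strand), the receptor with little kinase activity of its own, was a low transcript in 5 of the 6 tumors. It was at 1.43 CPM in No244, 0.348 CPM in No316 and 0.378 CPM in No368. In the Cd44-/- tumors it was at 1.39 CPM in No203, 0.990 CPM in No279 and 142 CPM in No364, a level 99.6-fold above the next highest tumor. The tumors No203 and No279 lay within the Cd44+/+ range. The group means were 0.896 ± 0.754 CPM (SD, n = 2) and 48.2 ± 81.4 CPM (SD, n = 3). The edgeR log2 fold change was 6.13 (SE 2.17), with an unadjusted p of 0.0268 and an adjusted p of 0.452. Without No364 the edgeR log2 fold change was 0.77 (SE 0.88), with an unadjusted p of 0.414. When libraries were scaled by their size alone, Erbb3 was higher in each Cd44-/- tumor than in any Cd44+/+ tumor. That separation was absent under TMM and under the size factors of DESeq2.

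Erbb2 (ENSMUSG00000062312, chr11:98412470-98437716, plus strand), the receptor without a ligand of its own, was the most even of the receptors. It was at 13.4 CPM in No244, 13.7 CPM in No316 and 15.7 CPM in No368. It was at 19.3 CPM in No203, 12.4 CPM in No279 and 3.61 CPM in No364, the tumor with the lowest summed osteoblast markers. No203 was the highest and No364 the lowest of the 6 tumors. The group means were 14.0 ± 0.933 CPM (SD, n = 2) and 11.8 ± 7.87 CPM (SD, n = 3). The edgeR log2 fold change was -0.27 (SE 0.62), with an adjusted p of 0.882, and it turned to 0.16 (SE 0.37) without No364. Its exons shared 9 bases with those of Mien1.

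Erbb4 (ENSMUSG00000062209, chr1:68032186-69108059, minus strand), the neuregulin receptor with an active kinase, had 0 counts in No244, No316, No368 and No279 and 1 count in No203. No364 had 48 counts, or 2.51 CPM, which was at least 9.97-fold above the floor of 3 counts in the Cd44+/+ library with the highest floor. At 0 counts the transcript was not detectable at this depth in 4 tumors.

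The makeup of the receptors was compared as shares of their summed level per kilobase of exon, which does not depend on library scaling. Erbb2 made up 76.0% of receptor transcripts in No244, 73.6% in No316 and 75.5% in No368. It made up 77.2% in No203, 43.5% in No279 and 0.948% in No364. Egfr took 16.9% in No244, 24.8% in No316 and 22.9% in No368, against 17.9% in No203, 53.5% in No279 and 66.4% in No364. Thus Erbb2 was the main receptor in the Cd44+/+ tumors and in No203, and Egfr was the main receptor in No279 and No364. The share of Erbb3 was 1.57% to 7.04% in every tumor but No364, where it was 32.3%. The receptors together were at 3.37 to 5.47 CPM per kilobase in the other tumors and at 73.1 CPM per kilobase in No364. The mean share of Erbb2 was 34.7 percentage points lower in Cd44-/- tumors (40.5% ± 38.2, n = 3, against 75.3% ± 1.05, n = 2), with p = 0.4 in a two-sided exact permutation test. Without No364 the difference in the share of Erbb2 was -14.95 points. That of Egfr was 25.6 points higher (46.0% ± 25.1 against 20.4% ± 4.90, SD), with p = 0.3 in the same exact permutation test, and 15.3 points higher without No364. The difference in the share of Erbb3 was 9.06 points with No364 and -0.41 points without it. With 2 against 3 samples, p cannot be lower than 0.1, and the lowest of the 10 Benjamini-Hochberg adjusted values of these exact permutation tests was 0.714.

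**Figure D2:**
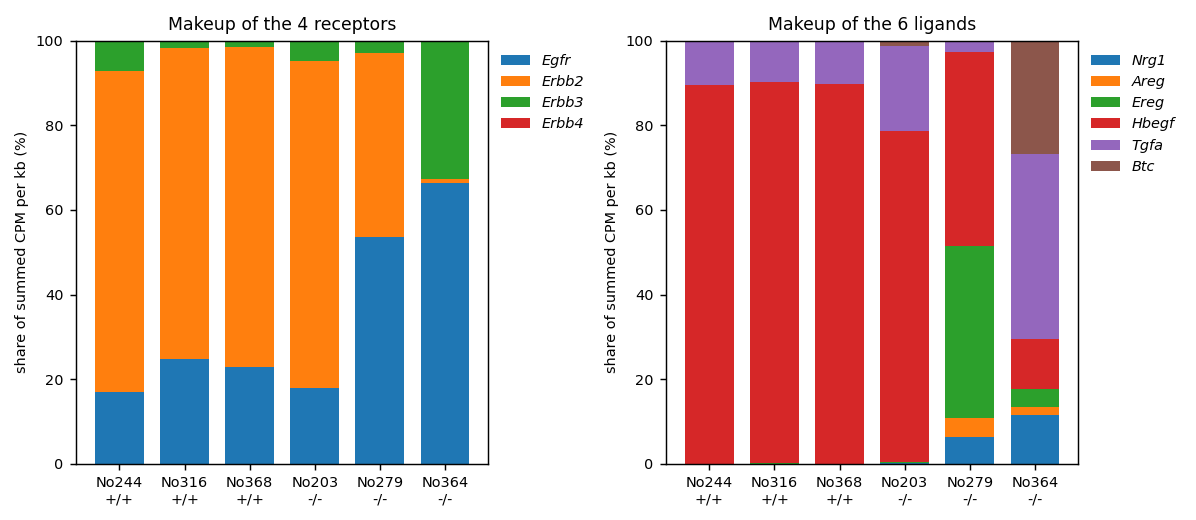
Stacked bars give the share (%) of each gene in the summed level per kilobase of exon of the 4 receptors (left) and of the 6 ligands (right), for each tumor. Erbb2 holds 73.6% to 77.2% of the receptor bars of the Cd44+/+ tumors and of No203, and Hbegf holds 89.4% to 90.2% of the ligand bars of the Cd44+/+ tumors.

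Among the ligands, Hbegf (ENSMUSG00000024486), which is released from the cell surface by metalloproteinases, was the most abundant per length in 5 of the 6 tumors. It was at 14.3 CPM in No244, 56.0 CPM in No316 and 56.8 CPM in No368. In the Cd44-/- tumors it was at 14.7 CPM in No203, 29.2 CPM in No279 and 6.18 CPM in No364. The 2 tumors that differ by little more than sampling noise, No316 and No368, were the highest, and No244 lay within the Cd44-/- range. The group means were 35.3 ± 29.8 CPM (SD, n = 2) and 16.7 ± 11.6 CPM (SD, n = 3). The edgeR log2 fold change was -1.34 (SE 0.73), with an unadjusted p of 0.111 and an adjusted p of 0.519. Without No279 the edgeR log2 fold change of Hbegf was -2.02 (SE 0.79), with an unadjusted p of 0.0478 and an adjusted p of 0.451. As a share of ligand transcripts per kilobase, Hbegf took 89.4% in No244, 90.2% in No316 and 89.7% in No368. It took 78.2% in No203, 46.0% in No279 and 12.0% in No364, so that the shares did not overlap. The mean share was 44.3 percentage points lower in Cd44-/- tumors (45.4% ± 33.1, n = 3, against 89.7% ± 0.355, n = 2), with p = 0.2 in the two-sided exact permutation test. Without No364 the difference was -27.6 points.

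Tgfa (ENSMUSG00000029999, chr6:86195223-86275719, plus strand), a ligand of EGFR, was at 2.27 CPM in No244, 8.03 CPM in No316 and 8.77 CPM in No368. It was at 5.04 CPM in No203, 2.18 CPM in No279 and 30.3 CPM in No364. No203 lay within the Cd44+/+ range, No279 lay below it and No364 above it. The group means were 5.34 ± 4.34 CPM (SD, n = 2) and 12.5 ± 15.5 CPM (SD, n = 3). The edgeR log2 fold change was 0.97 (SE 1.04), with an adjusted p of 0.728, and it turned to -0.82 (SE 0.79) without No364. The share of Tgfa among ligand transcripts was 9.64% to 10.6% in Cd44+/+ tumors, 19.99% in No203, 2.56% in No279 and 43.7% in No364. Its mean was 11.8 points higher in Cd44-/- tumors, and 0.996 points higher without No364. Its exons shared 118 bases with Gm43917, which was not analysed here.

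Nrg1 (ENSMUSG00000062991, chr8:31814551-32884029, minus strand), the ligand of ErbB3 and ErbB4, had 0 counts in each of the 3 Cd44+/+ tumors. It had 2 counts in No203, 259 counts (8.55 CPM) in No279 and 242 counts (12.7 CPM) in No364. The level was at least 33.9-fold higher in No279 and at least 50.2-fold higher in No364 than the highest 3-count floor of the Cd44+/+ libraries, while No203 was below its own floor. Nrg1 and Btc were the 2 members whose genotypes did not overlap, with each Cd44-/- tumor above each Cd44+/+ tumor, a pattern seen in 8.72% of the 22409 genes. No member had the opposite order, which 8.47% of those genes had. For both genes that order includes Cd44-/- tumors with only 2 counts. Nrg1 exons shared 482 bases with those of Gm26578, which had 0 counts in No244, No316, No368 and No203, 38 in No279 and 41 in No364. Gm26578 is on the opposite strand, and the strand setting of the counting is not stated, so that reads of the pair cannot be told apart in that stretch.

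Ereg (ENSMUSG00000029377, chr5:91074622-91093646, plus strand), epiregulin, had 0 counts in No244, 2 in No316 and 0 in No368. It had 1 count in No203, 665 counts (22.0 CPM) in No279 and 35 counts (1.83 CPM) in No364. No203 was thus within the Cd44+/+ range. The ratio of No279 to the summed Cd44+/+ libraries was 708 (95% exact binomial interval 195 to 5858), and that of No364 was 59.1 (15.2 to 507). These intervals cover counting error only. No279 was the tumor in which Ereg took 40.5% of the ligand transcripts per kilobase, close to the 46.0% of Hbegf. Ereg exons shared 141 bases with Gm19610, which was not analysed here.

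Areg (ENSMUSG00000029378, chr5:91139599-91148432, plus strand), amphiregulin, lies beside Ereg on chromosome 5. It had 0 counts in each Cd44+/+ tumor and in No203, 22 counts (0.726 CPM) in No279 and 5 counts (0.262 CPM) in No364. Against the highest 3-count floor of the Cd44+/+ libraries it was at least 2.88-fold higher in No279 and at least 1.04-fold higher in No364. The neighbours Areg and Ereg were both highest in No279, and both were at or below 2 counts in the 4 tumors other than No279 and No364.

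Btc (ENSMUSG00000082361, chr5:91357261-91402994, minus strand), betacellulin, had 0 counts in No244, 1 in No316 and 0 in No368. It had 6 counts (0.238 CPM) in No203, 2 counts in No279 and 246 counts (12.9 CPM) in No364. No364 was 54.1-fold above the next highest tumor. The ratio to the summed Cd44+/+ libraries was 830.3 in No364 (95% exact binomial interval 148 to 32926) and 15.3 in No203 (1.86 to 706).

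Over all genes, edgeR called 0 of 16839 genes tested at an adjusted p of 0.05 (0%), and 1810 (10.7%) had an unadjusted p under 0.05. Of the 5 members tested, 2 (Egfr and Erbb3) had an unadjusted p under 0.05, both higher in Cd44-/- tumors, where 6.44% of all genes were. That fit counts No316 and No368 as 2 tumors. With the pair summed as 1, 761 genes had an unadjusted p under 0.05 in edgeR, and the unadjusted p was 0.0543 for Egfr and 0.0712 for Erbb3, so that neither passed. Nrg1 and Ereg entered that edgeR fit, with an unadjusted p of 0.0196 and 0.0344 and an adjusted p of 0.818 for both. They passed its low-count filter only through No279 and No364, where they were high, so these p-values are no independent support. limma-voom called 0 genes too, with 1540 at an unadjusted p under 0.05 and none of the members among them. The Wald test of DESeq2, the tool that the study used, called 419 of 17952 genes (2.33%) and 3 of the members, each higher in Cd44-/- tumors. These were Nrg1 (log2 fold change 9.58, SE 2.02, adjusted p = 0.000819), Ereg (8.11, SE 2.06, adjusted p = 0.0091) and Egfr (4.44, SE 1.27, adjusted p = 0.0295). The fitted values of Nrg1 and Ereg rest on libraries at or near 0 and are no bound on the fold. DESeq2 gave no adjusted p to Erbb3 and Btc, which its filter on single extreme libraries removed, or to Areg, which fell under its filter on low means. With the filter on extreme libraries turned off, 1195 genes (6.15%) were called, and Erbb3 (adjusted p = 0.00547) and Btc (adjusted p = 0.0078) joined the other 3 members. The study's own DESeq2 list of genes was longer than either of these. The study also tested selected candidate genes from its tumor comparison by quantitative PCR, in cultured osteosarcoma cells given doxorubicin or solvent. It reported that differential expression of Erbb3 was borne out between cells with and without Cd44. Those cells are not these tumors.

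The DESeq2 calls turned on single tumors. In fits chosen after seeing the data, No316 and No368 were summed, and DESeq2 called 146 genes (0.797%). Nrg1 (adjusted p = 0.00491) and Ereg (adjusted p = 0.0365) were called in that DESeq2 fit, and Egfr had an adjusted p of 0.141. Without No364, DESeq2 called 432 genes (2.36%) and 0 of the members, with adjusted p-values of 0.318 for Nrg1, 0.154 for Ereg and 0.478 for Egfr. In that fit 2 members, Nrg1 and Ereg, had an unadjusted p under 0.05. Without No279 it called 1196 genes (6.32%) and 4 members (Egfr, Erbb3, Nrg1 and Btc), with an adjusted p of 0.234 for Ereg. Without No203 it called 2394 genes (12.6%) and 5 members (Egfr, Erbb3, Nrg1, Ereg and Btc). The plot of fold changes by setting shows how far each tested member depended on No364.

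**Figure D3:**
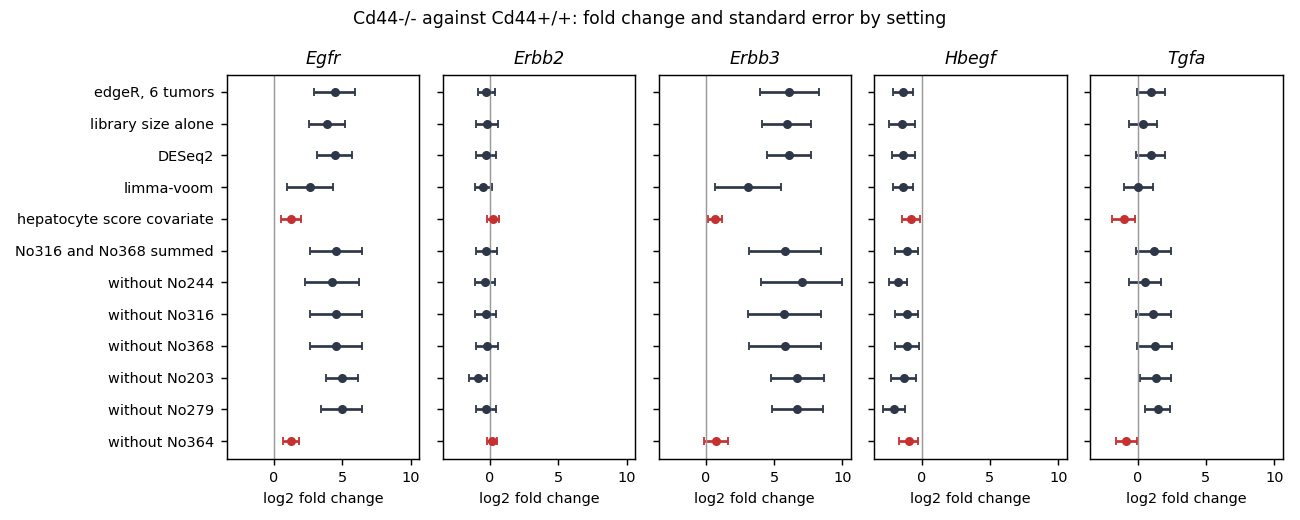
Points give the log2 fold change of the 5 tested members, Cd44-/- against Cd44+/+, under each setting on the vertical axis, with bars of 1 standard error, and red points mark the fits without No364 or with the hepatocyte score as a covariate. Egfr moved from 4.46 to 1.27 and Erbb3 from 6.13 to 0.77 without No364, and Erbb2 and Tgfa changed sign.

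Markers of other cell types differed between the tumors too, as the plot of marker lists shows. Those of hepatocytes, Kupffer cells and epithelium were highest in No364. Those of glia, osteoblasts, macrophages, endothelium and skeletal muscle were lowest there, and those of chondrocytes, neutrophils and osteoclasts were not. All 17 hepatocyte markers tested were highest in No364, with a median log2 fold change of 9.12 between genotypes and 0.39 without No364. The 5 Kupffer cell markers summed to 126 CPM in No364, 11.0 CPM in No203 and 0.336 to 1.12 CPM in the other 4 tumors. The tumor with the most Egfr, Erbb3, Erbb4, Nrg1, Tgfa and Btc was thus the one with the most liver RNA. The 14 epithelial markers summed to 2079 CPM in No364, with Krt8 at 963 CPM, Krt18 at 959 CPM and Cldn3 at 104 CPM, and to 7.81 to 39.7 CPM in the other tumors. In No364, Krt15 was at 0 counts, Esrp1 at 1 and Grhl2 at 2. In No279, the tumor with the most Ereg and Areg, the hepatocyte markers summed to 99.97 CPM, the lowest of all 6, and the epithelial markers to 39.7 CPM, of which Krt18 made up 28.5 CPM. Krt19, Krt5, Krt14, Krt15 and Esrp1 were at 0 counts in No279. The tumors other than No364 spanned 99.97 to 239 CPM of hepatocyte markers, and the part of liver RNA in the Ereg levels was not tested. The 10 Schwann cell and glial markers, chosen since Nrg1 and Erbb3 act in Schwann cells, summed to 90.8 to 141 CPM in the tumors other than No364 and to 23.6 CPM in No364. Sox10, their defining factor, had 0 counts in the Cd44+/+ tumors, 51 counts in No203, 1 count in No279 and 2 counts in No364. The part of liver, epithelial or glial cells in the ErbB differences was not tested. A fit with the hepatocyte score as a covariate cannot test it, since the score was high in No364 alone and so marks that tumor. In that edgeR fit the log2 fold change was 1.28 for Egfr and 0.66 for Erbb3, and 0 members had an unadjusted p under 0.05. Without No364 the edgeR values were 1.27 and 0.77.

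**Figure D4:**
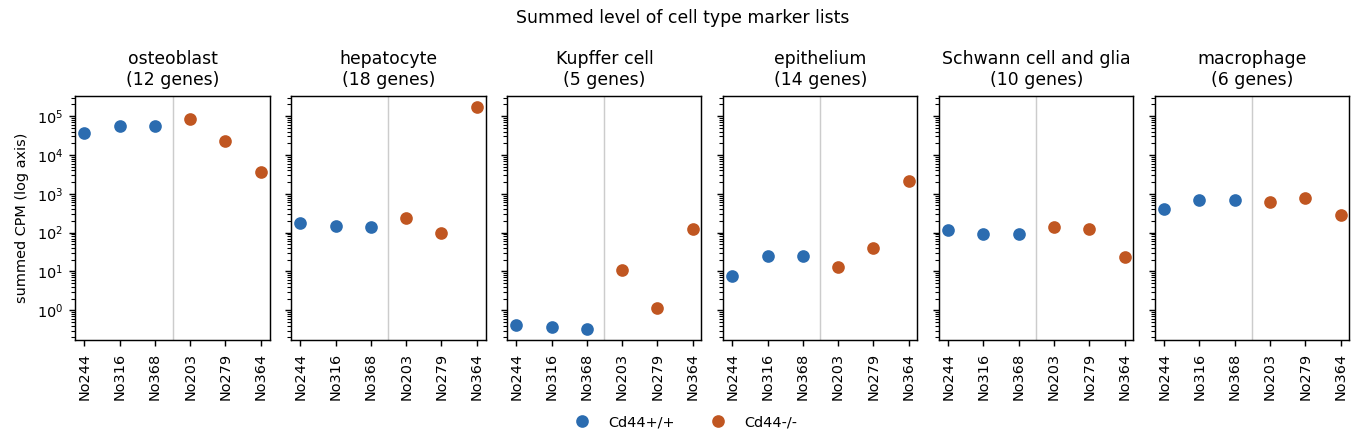
Points give the summed CPM (log axis) of 6 lists of cell type markers in each tumor, with Cd44+/+ tumors in blue and Cd44-/- tumors in orange. The hepatocyte list stands at 174687 CPM in No364 and at 99.97 to 239 CPM elsewhere, and the osteoblast list is lowest in No364, at 3700 CPM.

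The genes whose profile over the tumors was most like that of each tested receptor were named by the root mean square difference of log2 CPM, centred on the gene's mean, over 5 tumors (No316 and No368 averaged). For Egfr these were Gm2788 (0.29), Gch1 (0.31), which encodes the first enzyme of tetrahydrobiopterin synthesis, and Sc5d (0.37), an enzyme of cholesterol synthesis. Like Egfr, Sc5d was low in No244 (7.56 CPM), higher in No279 (23.7 CPM) and far higher in No364 (593 CPM). For Erbb3 they were Faah (0.32), a fatty acid amide hydrolase, Pemt (0.34), which makes phosphatidylcholine, and Agtr1a (0.43), an angiotensin receptor. For Erbb2 they were Tek (0.06), the angiopoietin receptor of endothelium, Zfp354c (0.10) and Trpm3 (0.11), an ion channel with at most 0.595 CPM. Tek was at 13.7 CPM in No244, 14.8 CPM in No316, 16.3 CPM in No368, 19.4 CPM in No203, 11.7 CPM in No279 and 3.82 CPM in No364, close to Erbb2 in each tumor.

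The genes that work with the ErbB receptors were read in 6 lists of 77 genes. Of these, 74 were tested, 31 had a log2 fold change above 0 and 43 below, with a median of -0.17 beside 0.11 over all genes tested. edgeR called none at an adjusted p of 0.05, and 5 (4 lower and 1 higher in Cd44-/- tumors) had an unadjusted p under 0.05, where 4.31% and 6.44% of all genes were. The genotypes did not overlap for 9 genes that were lower and 2 that were higher in Cd44-/- tumors, beside 9.57% and 9.49% of the genes tested. DESeq2 called 1 of the 75 it adjusted, no more than the 2.33% it called over all genes.

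Among the 5 other EGF-family ligands, of which 2 were tested, Egf had the lowest fold change. Egf was at 3.36 CPM in No244, 2.88 CPM in No316 and 2.69 CPM in No368, and at 1.07 CPM in No203, 0.528 CPM in No279 and 1.31 CPM in No364. It was lower in all Cd44-/- tumors, with an edgeR log2 fold change of -1.62 (SE 0.59), an unadjusted p of 0.0293 and an adjusted p of 0.452. Nrg4, a ligand of ErbB4, had a log2 fold change of -0.15. The 8 sheddases and trafficking partners had a median of -0.39, from Rhbdf1 at -1.03 (SE 0.29, unadjusted p of 0.00983 and adjusted p of 0.452 in edgeR) to Adam9, a metalloproteinase, at 1.14. Rhbdf1, an inactive rhomboid protein that handles the release of EGF-family ligands, was at 56.5 to 65.7 CPM in the Cd44+/+ and at 25.9 to 34.1 CPM in the Cd44-/- tumors.

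The 16 negative regulators had a median log2 fold change of -0.13. Lrig1, which promotes degradation of ErbB receptors, was at 6.30 CPM in No244, 2.05 CPM in No316 and 1.93 CPM in No368. It was at 4.04 CPM in No203, 25.9 CPM in No279 and 17.7 CPM in No364, so that No203 lay within the Cd44+/+ range and the other two lay above it. Its edgeR log2 fold change was 2.22 (SE 0.84, unadjusted p of 0.0353, adjusted p of 0.452) and 2.15 without No364. Errfi1, a feedback inhibitor of EGFR, had the highest fold change of the list, 2.39 (SE 1.06, adjusted p of 0.463 in edgeR), and was at 957 CPM in No364, 191 CPM in No279 and 40.5 to 79.5 CPM in the other 4 tumors. Without No364 its log2 fold change was 0.62. Spry1, an inhibitor of receptor signaling, had the lowest, -0.85.

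The 19 genes of the adaptor and lipid kinase arm had a median of -0.03. Plcg1, phospholipase C gamma 1, which binds the activated receptors, was at 152 CPM in No244, 149 CPM in No316 and 146 CPM in No368. It was at 49.1 CPM in No203, 65.6 CPM in No279 and 38.4 CPM in No364. The genotypes were well apart, with an edgeR log2 fold change of -1.55 (SE 0.35), an unadjusted p of 0.00344 and an adjusted p of 0.452. Plcg1 was the 1 gene of the 6 lists that DESeq2 called, with an adjusted p of 0.0121. The adjusted p of DESeq2 was 0.0401 without No364 and 0.278 with No316 and No368 summed. Sos2 was also lower in each Cd44-/- tumor, with an edgeR log2 fold change of -1.09 (SE 0.37, unadjusted p of 0.0236, adjusted p of 0.452), whereas its paralog Sos1, likewise an exchange factor for Ras, had the highest of the list, 1.47 (SE 0.80), with 200.5 CPM in No279 against 20.2 to 45.8 CPM elsewhere.

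The 14 genes of the Ras-MAP kinase arm had a median log2 fold change of -0.09, and Araf, a Raf family kinase, had the lowest, -1.03. The 15 transcripts that this arm induces had a median of 0.02. The extremes of the list were Dusp4, a MAP kinase phosphatase, at 2.63 (SE 1.16, adjusted p of 0.463 in edgeR) and Egr3, an immediate early transcription factor, at -1.91 (SE 1.09). Dusp4 was at 37.5 CPM in No279 and at 1.53 to 4.61 CPM in the other 5 tumors. Other genes of the list, such as Etv4 and Etv5, lay within the Cd44+/+ range in No279. A relation of these levels to the ErbB members was not tested.

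**Figure D5:**
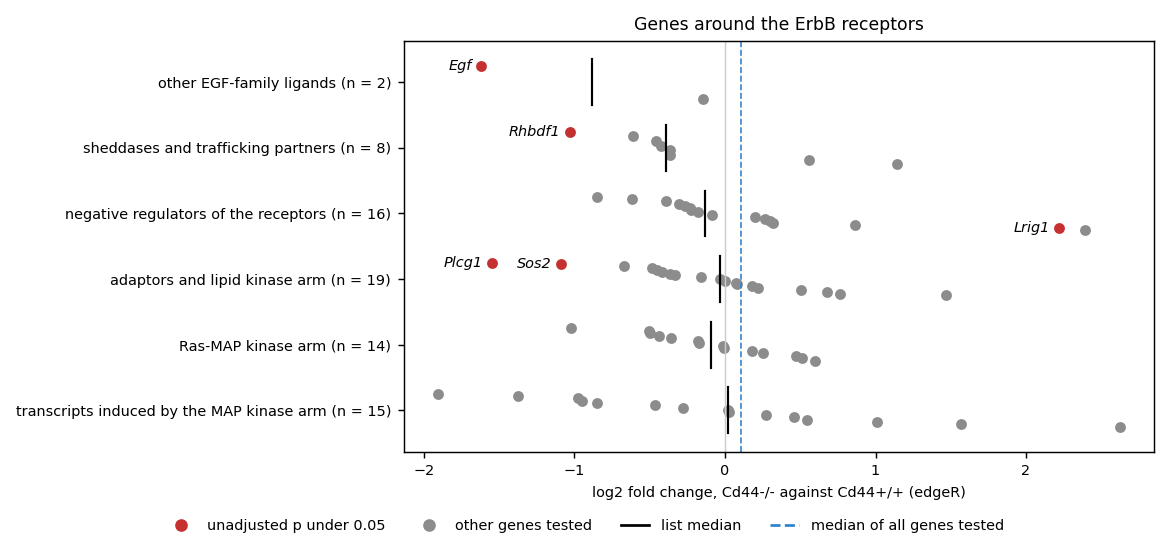
Points mark single genes by their log2 fold change, Cd44-/- against Cd44+/+, in 6 lists of genes around the ErbB receptors, with the number tested in brackets; red points have an unadjusted p under 0.05 in edgeR, black bars are list medians and the dashed line is the median of all genes tested (0.11). The list medians lie between -0.88 and 0.02, and Egf, Rhbdf1, Plcg1, Sos2 and Lrig1 are the red points.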

How the data were processed

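RNA was from samples labelled as osteosarcoma, 3 Cd44+/+ and 3 Cd44-/-, grouped by the genotype in the labels, with 1 library each. The study's methods describe single-end sequencing of stranded mRNA libraries. The values the authors deposited are raw counts for each Ensembl gene, without normalization. The submitters' processing notes name bcl2fastq 1.8.4, HISAT2 2.0.2, featureCounts of Subread 2.0.0 and GRCm38. Strand and multi-mapping settings of the counting are not given in the sources used here, so counts of genes that share exons with others are uncertain. No column was left unused.

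Counts were scaled with TMM factors and given as CPM. Per-length levels used the union of GENCODE M21 exons, another release than the one counted, in which 37693 of 39179 identifiers had a symbol. Genotypes were compared on all 6 libraries with edgeR 4.0.16 in R 4.3.3 (filterByExpr with its defaults, a minimum count of 10 and total of 15, quasi-likelihood F test, Benjamini-Hochberg adjustment over all genes tested, threshold 0.05). Nothing in the labels says more of how the samples relate, so p-values measure the spread between these samples. They count No316 and No368, which differ by little more than sampling noise, as 2, and so are too small where that pair is 1 tumor. Shares were compared with exact permutation tests (Python 3.11.15, SciPy 1.17.1). DESeq2 1.42.0 and limma-voom (limma 3.58.1) were alternatives, as were other scalings, filters, a hepatocyte score (mean log2 CPM, prior count 2) as a covariate, and leaving out tumors. The fits were tested on simulated data. The members, lists and alternatives were chosen with earlier results of these data known. The text names all members, Cd44, the highest and lowest fold change and each unadjusted p under 0.05 of every list, and the 3 genes most like each tested receptor. Marker genes, the overlap partners and the other transcripts induced by the MAP kinase arm were named after their values were seen. Some genes are not reported here.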

Additional observations from a re-analysis of the deposited data

How the results depend on the processing

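The adjusted edgeR result (0 genes, 0 members) did not change with the scaling, filter, covariate or any tumor left out, and the 1 limma-voom fit also called 0 genes. With DESeq2, 419 genes and 3 members were called, 1195 and 5 without its filter on extreme libraries, and, in fits chosen after seeing the data, 146 and 2 with No316 and No368 summed and 432, 1196 and 2394 genes and 0, 4 and 5 members without No364, No279 and No203. At an unadjusted p under 0.05, the 1810 genes of edgeR became 1197 with library size alone, 761 with No316 and No368 summed, 639 with that pair summed and No364 left out, 3646 with DESeq2 without its filter on extreme libraries, and 763 to 3085 in edgeR or 2334, 3201 and 4722 in DESeq2 (without No364, No279 and No203) with 1 tumor left out. The members at that threshold, 2 in edgeR (Egfr and Erbb3), were Nrg1 and Ereg instead with No316 and No368 summed or with either of them left out, Nrg1 and Hbegf without No244, 6 with no low-count filter, 1 with at least 10 counts in every tumor, 4 with DESeq2, 6 with DESeq2 without its filter on extreme libraries, 5 with DESeq2 and No316 and No368 summed, 0 with limma-voom, 0 with the hepatocyte score, 0 with that pair summed and No364 left out, and 0 to 4 in edgeR or 2 to 7 in DESeq2 with 1 tumor left out. Where Nrg1 or Ereg passed the low-count filter of an edgeR fit, it was only through No279 and No364, the tumors where they were high. The cause of these changes was not tested. Erbb2 turned from -0.27 to 0.16 in edgeR and 0.15 in DESeq2 without No364, to 0.17 with the pair also summed, and to 0.23 with the hepatocyte score. Tgfa turned from 0.97 to -0.82, -0.84, -0.58 and -1.01 under the same settings. With 1 tumor left out, Erbb2 ranged from -0.87 to 0.16 and Tgfa from -0.82 to 1.46 in edgeR. Over all the alternative settings, those of DESeq2 included, Egfr ranged from 1.25 to 5.004, Erbb3 from 0.45 to 7.02 and Hbegf from -2.04 to -0.70. These 3 kept their sign. The differences in shares kept their sign without length scaling, and all but that of Erbb3 did without No364. No paired analysis was possible because the labels give the genotypes no shared replicate numbers. Members at 0 counts are limited by depth: a level under 3 counts was not detectable, and with 2 or 3 tumors a genotype the exact tests could not go below 0.1.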
